A study of Mus musculus with 12 samples.

Results

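The members described here are 9 genes of leukocyte adhesion: the integrin chains Itga4, Itgb7, Itgb1, Itgb2, Itgam and Itgal, the selectin ligand Selplg, the junction receptor Pecam1 and the cadherin Cdh17. They were chosen by gene symbol from the 55487 genes of the deposited count table, and all 9 passed the filter on low counts, as did 14618 genes in all. No selectin is among them, since Selplg encodes PSGL-1, which selectins bind. The data are bulk RNA-seq of mouse monocytes labelled Ly6C+, with 3 libraries in each of 4 groups named by sample title. WT is fetal liver of genotype WT, taken at E13.5 for WT 1 and at E15.5 for WT 2 and WT 3. Mixed is fetal liver of genotype WT at E15.5, KO is fetal liver of genotype KO at E13.5, and BM is bone marrow of genotype WT with no age stated. No sample label gives the allele behind KO, the meaning of Mixed or a sort marker other than Ly6C. The series title names cMaf and Zeb2. Its design text speaks of tissue macrophages of 4 organs and of a line called Z165KO, which differs from the monocytes of the sample labels, so KO is not equated with that line here.

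Integrins are pairs of 1 alpha and 1 beta chain that span the membrane and tie extracellular ligands to the actin cytoskeleton. Itga4 pairs with Itgb1 to form VLA-4, which binds VCAM-1 and fibronectin, or with Itgb7 to form a receptor for the gut vessel ligand MAdCAM-1. Itgb2 is the shared beta chain of the leukocyte integrins, and pairs with Itgal to form LFA-1 or with Itgam to form Mac-1. PSGL-1, once decorated with the right glycans, lets leukocytes roll on selectins of the vessel wall. Pecam1 is found on endothelium, platelets and several leukocytes and acts in passage across the vessel wall, and Cdh17 is a cadherin best known from intestinal epithelium.

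Total counts ran from 17384911 to 24473471 per library, each made from 50k cells per the labels. The classical monocyte markers Ly6c2 and Lyz2 were present in all 12 libraries, at 490 to 1990 and 3950 to 22100 CPM (counts scaled to a library of 1e+06 counts, on library sizes adjusted by the trimmed mean of M values). Of the 8 classical monocyte markers listed, 3 were higher and 5 lower in KO than in WT, among the latter F13a1 (6.21-fold), Cd14 (3.03-fold) and Csf1r (2.19-fold), and 7 were higher and 1 lower in BM than in WT. The 8 summed to 7500 to 8580 CPM in KO, 10700 to 12200 in WT, 14300 to 14400 in Mixed and 34600 to 35300 in BM. T and NK cell markers summed to at most 1.39 CPM in any library. Zeb2 was at 22.1 ± 1.87 CPM (SD, n = 3) in KO against 150 ± 13.1 in WT, 6.75-fold lower (edgeR's quasi-likelihood test, adjusted p = 3.95e-17), while Maf did not pass the test (1.36-fold lower, adjusted p = 0.0549). The granule genes Ngp and Ltf stood out in KO 1 (478 and 454 CPM, against 101 to 139 and 98.9 to 137 in the other KO libraries) and in WT 3 (705 and 587 CPM). WT 3 and KO 3 were also the highest of their groups in 5 hepatocyte genes (61 and 76.5 CPM summed). In bulk RNA, fewer cells of a type and less RNA per cell cannot be told apart.

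In the GRCm38 annotation, the chains of the Itga4 receptors lie on 3 chromosomes: Itga4 at chr2:79255426-79333123, Itgb7 at chr15:102215995-102231944 on the minus strand, and Itgb1 at chr8:128685654-128733200. Itgb2 is at chr10:77530252-77565708, while its partners Itgam (chr7:128062640-128118491) and Itgal (chr7:127296260-127335138) are both on chromosome 7. Selplg is at chr5:113818536-113832644, Pecam1 at chr11:106654217-106750628 (both on the minus strand) and Cdh17 at chr4:11758147-11817895. All 9 are protein-coding genes. Itga4 overlaps Cerkl on the opposite strand by 2581 bases, and the library kit does not mark strand. Itgam overlaps the annotated gene Gm49368 on the same strand by 55809 bases. Counts of these 2 members are therefore uncertain where reads could be divided, although Cerkl was at 0.412 to 6.48 CPM and Gm49368 at 0.64 to 4.81 CPM.

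RefSeq promoter sequence (GRCm38.p6) was matched for 4 of the 9 members: Itga4, Itgam, Itgb1 and Itgb7. The 250 bases before the start of Itgb7 (chr15:102231936-102232185, minus strand) and Itgb1 (chr8:128685404-128685653, plus strand) are shown because these beta chains share the partner Itga4 and moved in opposite directions in KO. Both are written 5′ to 3′ on the gene's strand, with each match to AGGAAG, or CTTCCT on the other strand, in capitals. AGGAAG, called the ETS core here, is 1 form of the DNA motif of ETS family factors such as the myeloid regulator PU.1. Shorter or other forms of that motif were not searched and are not marked.
Itgb7: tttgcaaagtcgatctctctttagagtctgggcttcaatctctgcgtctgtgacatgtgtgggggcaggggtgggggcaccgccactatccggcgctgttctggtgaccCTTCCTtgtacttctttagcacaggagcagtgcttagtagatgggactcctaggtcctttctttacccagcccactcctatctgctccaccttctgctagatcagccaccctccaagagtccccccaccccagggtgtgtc
Itgb1: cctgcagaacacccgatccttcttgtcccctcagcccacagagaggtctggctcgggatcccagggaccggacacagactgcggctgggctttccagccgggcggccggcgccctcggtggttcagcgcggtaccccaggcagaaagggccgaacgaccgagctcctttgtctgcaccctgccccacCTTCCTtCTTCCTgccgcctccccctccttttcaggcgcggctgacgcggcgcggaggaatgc
Itgb7 has 1 ETS core, 141 bases before the start, and Itgb1 has 2, at 63 and 56 bases before it. Itgam has 1, at 83 bases before its start, and Itga4 has none. None of the 4 windows holds the E2 box CACCTG, the element of zinc-finger E-box factors such as Zeb2, or the Maf half-site TGCTGA, on either strand. Over 32851 RefSeq promoter windows of 250 bases, 29.5% hold the ETS core, 17.2% the E2 box and 16.1% the Maf half-site. A match describes the letters only, and its absence says nothing of a factor's binding.

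Most of the 9 adhesion genes were higher in KO and in BM than in WT fetal monocytes. By mean CPM, Itga4, Itgb7, Itgb2, Itgam and Selplg shared the order WT, Mixed, KO, BM, and the other 4 did not. In KO against WT, 7 members were called higher and 1 lower at an adjusted p under 0.05, where 18.2% of the 14618 tested genes were called higher and 19.9% lower. Cdh17 passed the filter on low counts through KO alone and so had to differ in each comparison with KO. Without it, 6 of 8 were higher and 1 lower in KO against WT, with a median log2 difference of 0.61 against -0.03 over all tested genes. In BM against WT, 7 were higher and none lower (background 32.1% and 31.9%). Mixed against WT gave 4 higher and none lower (background 4.21% and 3.87%). These 3 comparisons share the WT libraries. With Cdh17 counted, KO against Mixed gave 7 higher and 2 lower (background 18.2% and 18.5%), BM against Mixed 7 higher and none lower (29.5% and 28.9%), and BM against KO 5 higher and 2 lower (31.8% and 32%). The number of members called in KO against WT was 8 without KO 1 and 8 without WT 3, the libraries high in granule genes, with Cdh17 counted in both. Non-classical monocyte markers moved with BM: 5 of 5 were higher than in WT (663 to 712 CPM summed, against 155 to 196), and in KO none was higher and 3 were lower (79.3 to 86.6 CPM). All 5 erythroid markers were lower in BM (1.65 to 10.8 CPM summed, against 433 to 856 in WT). Their part in the members' differences was not tested.

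**Figure D1:**
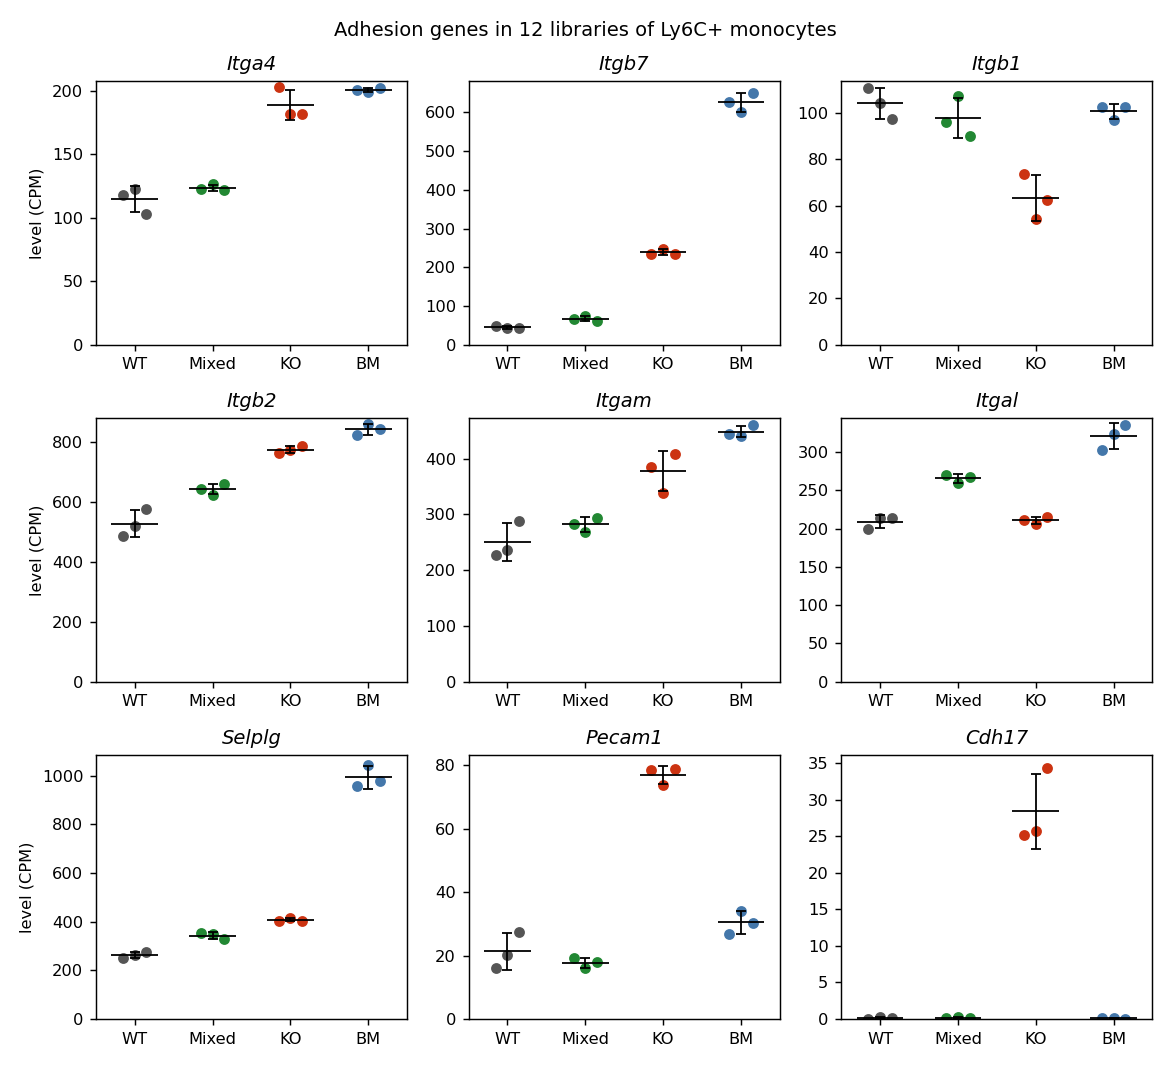
Level of each gene in CPM (vertical axes from 0) in the 3 libraries of each group; points are libraries, horizontal bars group means and vertical bars SD. Itgb7 and Selplg are highest in BM, Pecam1 and Cdh17 in KO, and Itgb1 is lowest in KO, at 54.1 to 73.8 CPM.

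Itga4, the alpha chain shared by both receptors of the first family, was high in KO and BM and low in WT and Mixed. The KO libraries were at 202.7, 181.9 and 182 CPM, the BM libraries at 200.7, 199 and 202, the Mixed libraries at 122.6, 126.3 and 121.9, and the WT libraries at 117.5, 123 and 103.2. KO and BM did not overlap WT or Mixed, while the KO and BM ranges overlapped, as did those of Mixed and WT. KO was 1.65-fold higher than WT (log2 0.72, SE 0.06, edgeR adjusted p = 6.33e-09) and BM 1.75-fold higher (adjusted p = 2.58e-10). Neither Mixed against WT (adjusted p = 0.331) nor BM against KO (1.06-fold, 95% interval 0.971 to 1.16, adjusted p = 0.231) passed the test. On the deposited TPM values, BM was higher than KO by 0.42 on the log2 scale (adjusted p = 0.00367).

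Itgb7, the beta chain that makes Itga4 a receptor for MAdCAM-1, had the widest range of the integrin chains. It was at 47.64, 43.47 and 42.19 CPM in WT, 66.09, 73.53 and 62.11 in Mixed, 233.7, 247.7 and 233.8 in KO, and 626.5, 601.5 and 650.3 in BM. No 2 groups overlapped, and every neighbouring step in the order WT, Mixed, KO, BM passed the test. Mixed was 1.52-fold higher than WT (SE 0.07 on the log2 scale, edgeR adjusted p = 2.18e-05), KO 3.54-fold higher than Mixed (adjusted p = 1.6e-15) and BM 2.63-fold higher than KO (adjusted p = 1.57e-14). Against WT directly, KO was 5.37-fold and BM 14.1-fold higher (adjusted p = 2.96e-17 and 1.08e-20). WT 1, the WT library of the same embryonic day as KO, was the highest of the WT group and still far below the lowest KO library. With embryonic day as a covariate (9 fetal libraries), the KO difference from WT was 5.06-fold, a value that rests on WT 1 as the WT library of the KO day.

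Itgb1, the beta chain of VLA-4 and of many matrix receptors, was the member that fell in KO. The KO libraries were at 73.8, 54.14 and 62.21 CPM. The other groups were at 110.8, 104.2 and 97.39 (WT), 96.1, 107.2 and 89.87 (Mixed), and 102.6, 97.03 and 102.6 (BM). Every KO library was below all 9 others, and the WT, Mixed and BM ranges overlapped one another. KO was 1.64-fold lower than WT (log2 -0.71, SE 0.09, edgeR adjusted p = 3.71e-06) and 1.54-fold lower than Mixed (adjusted p = 1.93e-05), and BM was 1.59-fold higher than KO (adjusted p = 2.93e-06). BM against WT did not pass the test (1.03-fold lower, adjusted p = 0.66).

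The 2 beta chains that can pair with Itga4 stood in different proportion in the groups. On TPM (deposited values, scaled by transcript length and to the same total per library), the ratio of Itgb7 to Itgb1 was 0.691, 0.75 and 0.629 in WT, 1.03, 1.08 and 1.09 in Mixed, 5.18, 7.15 and 6.53 in KO, and 9.47, 9.17 and 8.93 in BM. WT monocytes had more Itgb1 than Itgb7 transcript, Mixed had nearly equal amounts, and KO and BM had several times more Itgb7. The groups did not overlap, and KO exceeded WT 9.05-fold and BM exceeded WT 13.3-fold. An exact two-sided permutation test gave p = 0.1 for each, the smallest that 3 libraries against 3 allow.

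**Figure D2:**
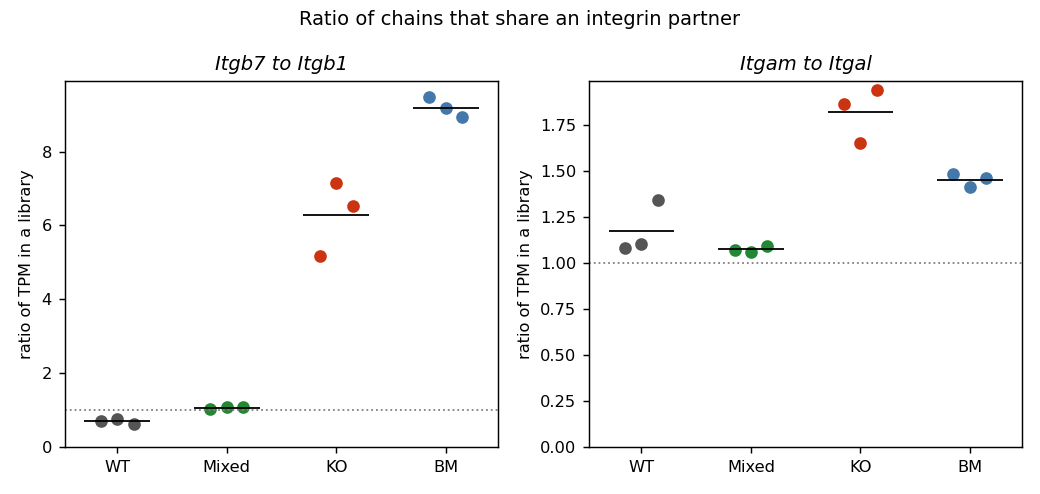
Ratio of deposited TPM values in each library (points) with group means (bars), for Itgb7 to Itgb1 (left) and Itgam to Itgal (right); the dotted line marks equal TPM. The Itgb7 to Itgb1 ratio averages 0.69 in WT and 6.29 in KO, and the Itgam to Itgal ratio 1.17 in WT and 1.82 in KO.

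Itgb2, the common chain of LFA-1 and Mac-1, had means in the order WT, Mixed, KO, BM. It was at 487.2, 519 and 577 CPM in WT, 644.2, 625.2 and 659.5 in Mixed, 764.9, 775.1 and 786.7 in KO, and 823.3, 860.6 and 844.4 in BM. The groups did not overlap, although the steps were small. Mixed was 1.22-fold higher than WT (SE 0.05 on the log2 scale, edgeR adjusted p = 0.00263), KO 1.21-fold higher than Mixed (adjusted p = 0.000378) and KO 1.47-fold higher than WT (adjusted p = 3.16e-08). BM against KO missed the threshold (1.09-fold, adjusted p = 0.0566). These 2 upper steps depended on the scaling: on TPM the KO to Mixed difference was 0.08 on the log2 scale (adjusted p = 0.152), where the median of all genes was -0.188. BM was higher than KO by 0.38 on TPM (adjusted p = 4.07e-06), where the median of all genes was 0.205.

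Itgam, the alpha chain of Mac-1 (CD11b), followed Itgb2 at lower levels. It was at 226.3, 236.1 and 288.9 CPM in WT, 283.5, 268.2 and 294 in Mixed, 384.7, 338.5 and 408.6 in KO, and 444.7, 440.3 and 460.1 in BM. WT 3 lay within the Mixed range, and KO and BM lay above both groups without overlapping each other. KO was 1.51-fold higher than WT (SE 0.08 on the log2 scale, edgeR adjusted p = 1.38e-05) and BM 1.79-fold higher (adjusted p = 5.71e-08). Mixed against WT was not called (1.13-fold, adjusted p = 0.224), but was without WT 3 (log2 0.29, adjusted p = 0.008). BM was 1.19-fold higher than KO (adjusted p = 0.0116), a call lost without KO 2 (adjusted p = 0.082), and KO 1.34-fold higher than Mixed (adjusted p = 0.000448), which was not called on TPM (log2 0.23, adjusted p = 0.0531).

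Itgal, the alpha chain of LFA-1 (CD11a), did not follow Itgam. It was at 199.5, 213.9 and 214 CPM in WT, 211.3, 206.2 and 214.8 in KO, 269.7, 259.1 and 267.6 in Mixed, and 302.7, 323.7 and 335.4 in BM. KO overlapped WT, and Mixed and BM were each above both. KO against WT was 1.01-fold with a 95% interval of 0.934 to 1.09 (edgeR adjusted p = 0.896). On TPM, KO was lower than WT by 0.187 on the log2 scale (adjusted p = 0.00904), where the median of all genes was itself lower by 0.151. Mixed was 1.27-fold and BM 1.53-fold higher than WT (adjusted p = 0.000573 and 1.06e-09), and KO 1.26-fold lower than Mixed (adjusted p = 2.89e-05). The last call was lost with embryonic day as a covariate (log2 -0.22), a fit whose day term rests on WT 1 against WT 2 and WT 3. KO and Mixed were taken on different days.

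The alpha chains of Itgb2 were tilted toward Itgam in KO. The TPM ratio of Itgam to Itgal was 1.86, 1.65 and 1.94 in KO, 1.48, 1.41 and 1.46 in BM, 1.07, 1.06 and 1.09 in Mixed, and 1.08, 1.1 and 1.34 in WT. KO and BM did not overlap WT, and WT 3 was the highest of its group. KO exceeded WT 1.55-fold and BM exceeded WT 1.24-fold (exact two-sided permutation p = 0.1 for each, the smallest possible), and Mixed against WT gave p = 0.2 in the same exact test.

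Selplg, which encodes PSGL-1, rose in the same order as Itgb7 and Itgb2. It was at 252, 263.3 and 275.2 CPM in WT, 352.5, 349.1 and 327.1 in Mixed, 402.5, 414 and 404.7 in KO, and 956.6, 1045 and 979.4 in BM. The groups did not overlap, and BM stood far above the 3 fetal groups. Mixed was 1.3-fold higher than WT (SE 0.05 on the log2 scale, edgeR adjusted p = 0.000203), KO 1.54-fold higher than WT (adjusted p = 2.18e-09) and BM 3.77-fold higher than WT (adjusted p = 7.38e-18). BM was also 2.44-fold higher than KO (adjusted p = 2.98e-15). KO was 1.19-fold higher than Mixed (adjusted p = 0.000548), which did not pass on TPM (log2 0.08, adjusted p = 0.138).

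Pecam1, which encodes CD31, was highest in KO and not in BM. It was at 78.57, 73.85 and 78.98 CPM in KO, 26.93, 34.07 and 30.41 in BM, 16.12, 20.28 and 27.53 in WT, and 19.07, 16.03 and 17.9 in Mixed. Every KO library was more than double every other library, while WT overlapped both Mixed and BM. KO was 3.61-fold higher than WT (SE 0.14 on the log2 scale, edgeR adjusted p = 7.01e-08), 4.37-fold higher than Mixed (adjusted p = 1.73e-08), and BM was 2.53-fold lower than KO (adjusted p = 6.34e-07). BM was 1.43-fold higher than WT (adjusted p = 0.00659) although WT 3 exceeded BM 1. The endothelial gene Cdh5 was under 1 CPM in every library, and of the 2 endothelial markers tested none was higher in KO than in WT and 1 was lower. The 6 endothelial markers listed summed to 9.15 to 10.1 CPM in KO, where Emcn had no count, and 16.2 to 19.3 in WT. Egfl7 made up most of that sum (7.83 to 8.96 CPM in KO and 14.8 to 16.6 in WT). Of 5 platelet and megakaryocyte markers tested, none was higher and 1 was lower, the integrin beta chain Itgb3, which is described again below. The list summed to 9.42 to 21.2 CPM in KO and 11.7 to 24.5 in WT. Neutrophil markers moved with Pecam1 in part: 2 of 6, Ly6g and Mmp8, were higher in KO. The 6 summed to 1280 to 2180 CPM in KO, 622 to 1640 in WT, 356 to 407 in Mixed and 469 to 587 in BM. Mmp8 was the largest part of the KO sum (1033 CPM on average, against 162 in WT). Ngp, Ltf and Camp were lower on average in KO than in WT and Retnlg higher, none of them called. The part of these markers in the Pecam1 difference was not tested.

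Cdh17, a cadherin also reported on immature lymphoid cells, was present in KO and near the detection limit in the other groups. The KO libraries were at 25.19, 25.75 and 34.36 CPM. The 9 others were at 0.05579, 0.3127 and 0.09396 (WT), 0.09148, 0.2277 and 0.1443 (Mixed), and 0.1649, 0.09321 and 0 (BM). In counts, KO had 1857 in all, against 10 in WT, 10 in Mixed and 5 in BM. The ratio of KO to WT was 177 (95% counting interval 95.9 to 369), that to Mixed 186 (101 to 387) and that to BM 343 (147 to 1060), intervals that cover counting error only. No pair of the other 3 groups passed the edgeR test (adjusted p = 0.971, 0.326 and 0.379). Cdh17 passed the filter on low counts only through KO, so its test against KO adds nothing to these counts. Of 4 B cell markers tested in KO against WT, none was higher and 1, Cd79b, was lower. The 6 markers listed summed to 57.1 to 66 CPM in KO and 79.6 to 87.4 in WT. Nearly all of that sum was Cd79b (61.7 against 83.9 CPM on average), and the other B cell markers were under 1 CPM in both groups. Conventional dendritic cell markers rose with Cdh17 for the most part: 6 of 7 were higher in KO and 1, Cd209a, was lower. The 7 summed to 184 to 192 CPM in KO against 21.5 to 26.5 in WT, 25.9 to 29.7 in Mixed and 88.5 to 97.4 in BM. The part of these cells or genes in the Cdh17 difference was not tested.

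**Figure D3:**
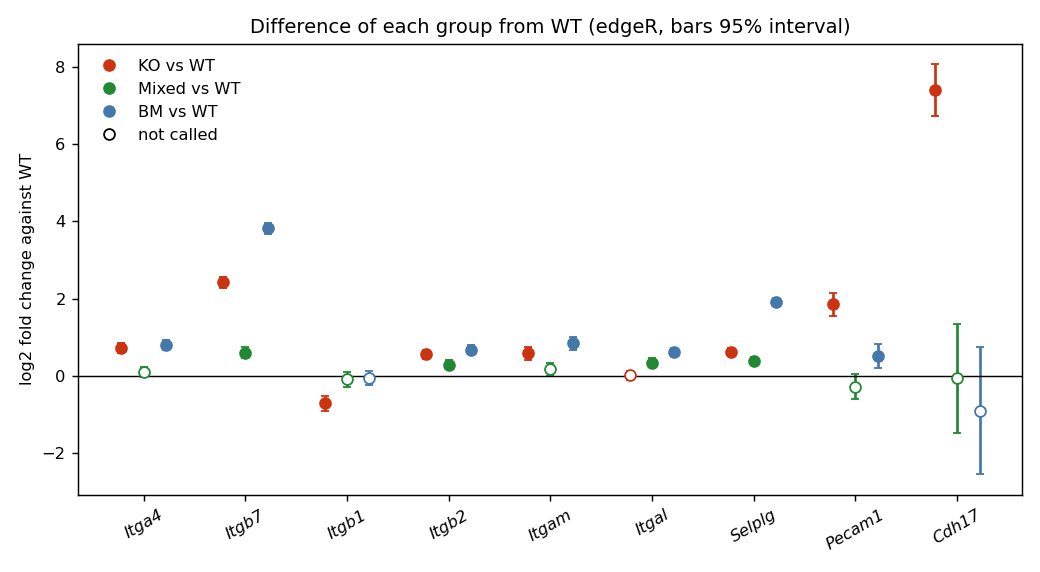
Log2 fold change of each gene against WT (vertical axis) in KO, Mixed and BM, with 95% intervals from the edgeR fit; filled points passed an adjusted p of 0.05 and open points did not. The 3 comparisons share the WT libraries. Cdh17 stands at 7.41 in KO, Itgb7 at 3.82 in BM, and Itgb1 is the gene below 0 among filled points.

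Per transcript length, the beta chain Itgb2 and the ligand Selplg were the most abundant members. In WT their TPM levels were 258.4 ± 11.5 and 210.9 ± 5.39 (SD, n = 3), followed by Itgam at 68.7 ± 8.2, Itgal at 58.6 ± 0.913, Itgb1 at 36.1 ± 1.86, Itgb7 at 24.99 ± 3.21 and Itga4 at 23.8 ± 3.34. Pecam1 was at 8.76 ± 2.35 TPM and Cdh17 at 0.057 ± 0.0515. The TPM levels of Itgb7 and Itga4 differed by less than their spread. In BM the order changed: Selplg led at 824.5 ± 33.7 TPM, then Itgb2 at 425.8 ± 2.46 and Itgb7 at 349.6 (range 332.4 to 362.4), while Itgb1 stayed at 38.04 ± 1.71. In KO, Itgb7 reached 124.1 ± 5.83 TPM, above Itgam at 93.6 ± 10.8, and Pecam1 (28.2 ± 2.03 TPM) lay above Itgb1 (20.1 ± 3.55 TPM).

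Over the 12 libraries, the log2 CPM of Itgb2 and Itgam followed each other most closely among pairs of members (Pearson r = 0.959), then Itga4 and Itgb7 (r = 0.955). Itga4 and its other partner Itgb1 had r = -0.423. Pecam1 and Cdh17 had r = 0.88 with each other, and Itgb1 had r = -0.868 and -0.915 with them. Libraries of a group share tissue and genotype, so these values mostly describe the 4 group means. Cdh17 was near the detection limit outside KO and passed the filter through KO alone. Its r values, here and with its nearest genes, therefore restate which genes differ in KO and add no support. Among 8062 other genes of at least 3 log2 CPM on average, the nearest to Itga4 were Ifitm3 and Oas2, both interferon-induced (r = 0.989 and 0.988). Pkp3, a desmosomal plakophilin, was nearest to Itgb7 (r = 0.995). For Itgb1 they were Ctbp2, a corepressor, and Pogk (r = 0.965 and 0.953), for Itgb2 Ppfia4 and the oxysterol receptor Gpr183 (0.987 and 0.986), for Itgam Mical1 and Endod1 (0.987 and 0.982), and for Itgal Nfam1 and the pyroptosis effector Gsdmd (0.988 and 0.986). Selplg was nearest to the costimulatory ligand Icosl and to Gltp, a glycolipid transfer protein (0.998 and 0.997). The neutrophil collagenase Mmp8 and the lipid receptor Cd36 were nearest to Pecam1 (0.985 and 0.984), and Casp6 and Iqsec1 to Cdh17 (0.986 and 0.985).

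Other integrin chains also differed between the groups. Of 8 further alpha chains tested in KO against WT, 4 were higher and 2 lower, with a median log2 difference of 0.68 against -0.03 over all genes. Itgax (CD11c), an Itgb2 partner that is also in the dendritic cell list, was at 26.5, 26.1 and 32.8 CPM in KO and 1.45, 2.06 and 2.58 in WT, 13.9-fold higher (edgeR adjusted p = 5.19e-13). Among the 4 higher chains, 3 that can pair with Itgb1 were higher while Itgb1 itself was lower: Itga6, a laminin receptor chain (46.9 against 22.9 CPM, 2.04-fold, adjusted p = 2.33e-08), Itga1, a collagen receptor chain (1.77-fold, adjusted p = 9.21e-08) and Itga8 (1.85-fold, adjusted p = 0.000927). The 2 lower alpha chains, named after their values were seen, can also pair with Itgb1: Itga5, the fibronectin receptor chain (1.47-fold lower, adjusted p = 6.93e-06), and Itgav (1.56-fold lower, adjusted p = 0.000111). Both further beta chains tested, the partners of the alpha-v chain Itgb5 and Itgb3, were lower in KO (2.89-fold, adjusted p = 2.78e-07, and 1.47-fold, adjusted p = 0.00396). In BM against WT, 3 of the 8 further alpha chains were higher and 2 lower, and 1 of the 2 further beta chains was higher. Among them, Itgb3 was 4.96-fold and Itga8 7.36-fold higher and Itga6 3.51-fold lower (adjusted p = 1.21e-12, 8.68e-12 and 5.7e-12). In Mixed against WT, Itga6 was 1.52-fold lower (adjusted p = 0.00128) and no further beta chain passed.

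Of 34 tested genes that activate integrins or link them to actin, 18 were higher and 2 lower in KO against WT (median log2 0.20), 25 and 5 in BM (0.66) and 9 and 0 in Mixed (0.14), where the medians over all genes were -0.03, 0.00 and -0.01. Over all tested genes 18.2% were higher and 19.9% lower in KO, 32.1% and 31.9% in BM, and 4.21% and 3.87% in Mixed, shares against which the counts of each list here are to be read. In KO the actin crosslinker Actn1 rose 2.59-fold (111 against 42.9 CPM, edgeR adjusted p = 4.24e-12), the focal adhesion kinase relative Ptk2b 1.9-fold (adjusted p = 6.54e-11) and the Src family kinase Fgr 1.78-fold (adjusted p = 1.72e-09). Parvb, an adaptor of integrin-linked kinase, fell 1.74-fold (adjusted p = 0.00611). In BM, Actn1 was nearly absent, at 1.76, 1.17 and 1.74 CPM, 27.7-fold lower than WT (adjusted p = 1.5e-18), and Tln2, a talin, was 9.65-fold lower (adjusted p = 8.22e-12). Fgr was 1.51-fold higher in Mixed (adjusted p = 2.3e-05), and the actin crosslinker Flna 1.28-fold (adjusted p = 0.00327).

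Of 18 tested selectins and enzymes that decorate their ligands, 7 were higher and 5 lower in KO against WT (median log2 -0.05), and 13 higher and 1 lower in BM (median 0.51), with 18.2% and 19.9% of all genes called in KO and 32.1% and 31.9% in BM. Fut7, the fucosyltransferase that finishes the selectin-binding glycan on PSGL-1, fell in KO: it was at 8.64, 10.8 and 10.9 CPM there and at 23.9, 26.8 and 28 in WT, 2.6-fold lower (edgeR adjusted p = 8.73e-10), although Selplg itself rose. In Mixed, Fut7 rose 1.4-fold (adjusted p = 0.00409) along with the sialyltransferase St3gal4 (1.24-fold, adjusted p = 0.00767). Cd24a, a P-selectin ligand, was at 173, 172 and 164 CPM in KO and 11.6, 14.9 and 28.2 in WT (9.25-fold, adjusted p = 1.71e-05). Tpst1, which sulfates PSGL-1 tyrosines, was 2.15-fold higher in KO and 5.14-fold higher in BM (adjusted p = 0.000113 and 4.58e-10), and C1galt1, which builds the core glycan, 2.04-fold higher in KO (adjusted p = 0.000215). Fut4 was 3.19-fold higher in BM (adjusted p = 1.53e-06).

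Immunoglobulin-type adhesion molecules, the family of Pecam1, were listed together with junction molecules. Of 24 tested, 7 were higher and 5 lower in KO against WT (median log2 0.02). In BM, 10 were higher and 8 lower (median -0.13), counts near the 32.1% and 31.9% of all genes. Cadm1 was 9.09-fold higher in KO (edgeR adjusted p = 1.21e-09), the junctional LFA-1 ligand F11r 3.48-fold (adjusted p = 2.64e-07), Alcam 3.03-fold (adjusted p = 8.26e-08) and Cd99l2, which acts in transmigration, 2.54-fold (adjusted p = 1.66e-09). In BM, L1cam was 17.1-fold and Sirpb1a 11.5-fold higher than WT (adjusted p = 3.05e-17 and 9.09e-15). L1cam also rose 1.95-fold in Mixed (adjusted p = 0.000264) and the nectin-like receptor Pvr fell 1.49-fold (adjusted p = 0.0197).

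Cadherins, the family of Cdh17, were listed together with catenins. Of 11 tested, 6 were higher and 1 lower in KO against WT (median log2 0.46), and 3 higher and 4 lower in BM (median -0.31). The p120 catenin Ctnnd1, which stabilises classical cadherins at the membrane, was the list gene called lower in KO, 3.49-fold (9.57 against 33.5 CPM, edgeR adjusted p = 6.26e-13). Ctnnal1 was 2.24-fold higher in KO (adjusted p = 2.49e-05) and 3.89-fold lower in BM (adjusted p = 9.61e-08), and Ctnnbip1, an inhibitor of beta-catenin, was 1.51-fold higher in KO (adjusted p = 0.00691). Cdh23 was 1.48-fold higher in KO (adjusted p = 0.00382) and 1.51-fold in Mixed (adjusted p = 0.0145), while Ctnna1 was 1.2-fold higher in Mixed (adjusted p = 0.00756) and Celsr3 4.12-fold higher in BM (adjusted p = 1.52e-07). Of 18 tetraspanins, membrane organisers that associate with integrins, 6 were higher and 7 lower in KO (18.2% and 19.9% over all genes). Those named here by size of fold were all among the 6 higher, and the 7 lower are not named. They were Tspan13 (4.56-fold higher), Cd37 (2.36-fold), Cd82 (2.22-fold) and Cd9 (2.21-fold, edgeR adjusted p at most 7.68e-10 for each). Cd63 fell 2.08-fold in Mixed (adjusted p = 3.37e-05) and 19.2-fold in BM (adjusted p = 1.04e-14), while Tspan14 rose 1.27-fold in Mixed (adjusted p = 0.00242) and Tspan17 11.2-fold in BM (adjusted p = 1.01e-10).

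**Figure D4:**
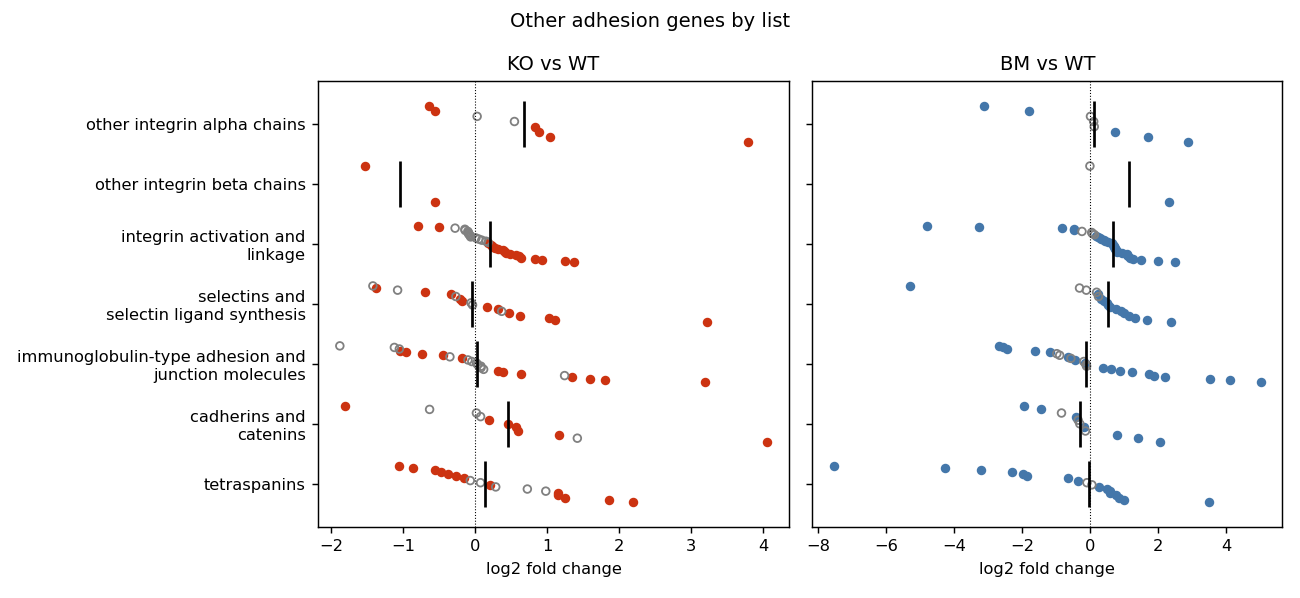
Log2 fold change (horizontal axes, which differ in range) of the tested genes of 7 adhesion lists in KO against WT (left) and BM against WT (right), which share the WT libraries; filled points passed an adjusted p of 0.05, open points did not, and black bars are list medians. Activation and linkage genes have medians of 0.20 and 0.66.

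In KO against Mixed, activation and linkage genes gave 11 higher and 8 lower of 34, and selectin genes 6 and 6 of 18 (18.2% and 18.5% over all genes). Itgax was 21.3-fold higher in KO than in Mixed (edgeR adjusted p = 1.02e-13), Fut7 3.63-fold lower (adjusted p = 4.5e-12), and Ctnnd1 3.69-fold lower (adjusted p = 2.94e-13). In BM against KO, activation and linkage genes gave 22 higher and 6 lower, and tetraspanins 7 higher and 10 lower of 18 (31.8% and 32% over all genes). Actn1 was 71.8-fold lower and Cadm1 49.3-fold lower in BM than in KO (adjusted p = 1.16e-20 and 1.79e-12), while L1cam was 33.3-fold higher (adjusted p = 3.24e-18). BM against Mixed gave 23 higher and 6 lower activation and linkage genes (29.5% and 28.9% over all genes), with Itga1 3.28-fold and Itgb3 3.99-fold higher in BM (adjusted p = 2.16e-13 and 1.29e-11).

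Embryonic day and genotype were not balanced, since all 3 KO libraries but only WT 1 came from E13.5. A comparison within E13.5 has 1 WT library and so no test. There, WT 1 was below the lowest KO library for Itga4, Itgb7, Itgb2, Itgam, Selplg, Pecam1 and Cdh17, which passed the filter through KO alone. It was above the highest KO library for Itgb1. For Itgal, not called in KO against WT, it was also below all 3 (199.5 CPM against 206.2 to 214.8). How often WT 1 lies outside the KO range over all genes was not counted. KO was all E13.5 and Mixed all E15.5, so a day term can be fitted only within WT, from WT 1 against WT 2 and WT 3. With day as a covariate, the folds of KO against WT were 1.63 for Itga4, 1.61 for Itgb2, 1.69 for Itgam and 1.63 for Selplg. Pecam1 was 4.84-fold higher and Itgb1 1.73-fold lower. These folds rest on WT 1, the WT library of the KO day.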

How the data were processed

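Bulk RNA-seq of Ly6C+ monocytes was analysed in 12 libraries, 3 per group by sample title. The authors deposited estimated counts per gene, from which CPM were computed here, and TPM per gene (used as deposited). The deposited CPM table was used only to recompute the chain ratios with CPM in place of TPM. Salmon, STAR, featureCounts, Subread and DRAGEN are the tools listed in the submitters' processing notes, with build mm10 and no stated roles. Of the nonzero counts, 28.5% were not whole, so counts were rounded. Table columns lettered m were read as Mixed. Of 55774 entries, 287 exact repeats of an Ensembl gene were removed.

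Genes were kept by filterByExpr (minimum count 10, minimum total 15), TMM-scaled, and tested with edgeR 4.0.16 (R 4.3.3) by the quasi-likelihood method in 1 fit to all 12 libraries, two-sided, with Benjamini-Hochberg adjustment over 14618 genes and a threshold of 0.05. SEs were derived from the fitted log2 difference and its F statistic, and the 95% intervals from the same fit's degrees of freedom. Depth of 17384911 to 24473471 counts makes 1 count worth about 0.05 CPM. TPM were tested with limma 3.58.1 on log2 values with a pseudocount of 1 or 0.1, over genes of mean TPM at least 1, which understates changes of low genes. Other alternatives were DESeq2 1.42.0, limma-voom, other scaling and filters, unrounded counts, 2 groups only, a replicate block, an embryonic day covariate (fetal libraries only) and leaving out each library. The edgeR procedure was also tested on simulated data, where it fell just short of the recovery first required over all changed genes; the requirement was then restricted, after that outcome was seen, to genes of at least 1 CPM, which it met. Loci are from GENCODE vM21.

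The members and lists were chosen with earlier results of these data known. Named list genes were those called with the largest fold at 1 log2 CPM or more on average, up to 4 per list in KO against WT and 2 elsewhere, or the most abundant gene where none was called. Beside each member the 2 genes of highest Pearson correlation were named, except 1 that is not reported here. Zeb2, Maf and cell type markers were named as checks. Since no label states that replicate libraries are from different animals, the spread behind the p-values may be technical.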

Additional observations from a re-analysis of the deposited data

How the results depend on the processing

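Of 54 combinations of a member and a comparison, 45 kept their side of the threshold under up to 24 settings each. Of these 45, 40 also kept their sign, and 5, all of Itgb1 or Cdh17 and called under no setting, did not. Every combination with Cdh17 is among the 45 and says nothing of stability. Its calls against KO were fixed by the filter, and its other comparisons rest on 5 to 10 counts per group. The combinations that changed side touch small differences: Itgal in KO against WT turned to lower on TPM (log2 -0.187 with a pseudocount of 1 and -0.19 with 0.1). Itgb2 in BM against KO crossed the threshold under limma-voom (adjusted p = 0.0357), library totals (0.0069), the replicate block (0.0446), TPM, and without WT 1 (0.0377) or WT 3 (0.0223). Counts of genes called over the whole table moved by more than 1.5 times in 3 comparisons. With embryonic day as a covariate they were 3706 in KO against WT (from 5565), 396 in Mixed against WT (from 1180) and 1959 in KO against Mixed (from 5365); the cause was not tested. Mixed against WT gave 752 and 741 on TPM and 419 to 1486 when 1 library was left out (419 without Mixed 1, 478 without WT 1, 670 without Mixed 3 and 696 without WT 2). Of the genes called in KO against WT, 47.7% were higher; that share was 32.5% with library totals alone and 26.4% on TPM, where the median of all genes shifted to -0.13 and -0.151. Library numbers are shared between groups, but same-numbered libraries did not deviate together (correlations from -0.0353 to 0.0693, and not every library correlated best with its own number). The replicate block gave 5525 genes called and 8 members in KO against WT, with Cdh17 counted. At this depth Cdh17 outside KO rests on 5 to 10 counts per group, so an order among those groups was not detectable.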
